A study of Arabidopsis thaliana with 24 samples.

Results

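The comparison of 2e with 12 in jaz9-1 set 3 libraries of 2e-treated jaz9-1 seedlings directly against 3 libraries of 12-treated jaz9-1 seedlings, 6 of the 24 libraries of the study, across all genes. The 6 libraries were taken by genotype and treatment as labelled. RNA-seq was performed on pools of 5 to 8 whole seedlings, 6 days old, grown in dilute Murashige-Skoog liquid medium under a long-day cycle and treated for 8 h. Wild-type Col-0 and jaz9-1, a line of the Col-0 background with an insertion in JAZ9, each received mock medium, coronatine (2), 2e or 12, with 3 libraries per group. The series text gives a dose of 1 µM for the 3 compounds. 2e is a stereoisomer of coronatine, and 12 is known here only by its number, as a further derivative. The labels name no other altered gene in jaz9-1, so the seedlings compared were taken to carry the remaining JAZ repressors and the receptor COI1, and the results rest on this 1 insertion line. The comparison asks whether seedlings that carry the JAZ9 insertion responded alike to both derivatives.

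Coronatine is a bacterial mimic of the jasmonate hormone. Jasmonates and coronatine join the F-box protein COI1 to JAZ repressors, the JAZ proteins are then degraded, and transcription factors such as MYC2 are released to switch on jasmonate genes. Among the genes known to respond are those of jasmonate synthesis, of defence proteins and of anthocyanins, the red flavonoid pigments of the epidermis. Young seedlings also carry enzymes that convert stored oil into sugar through the glyoxylate cycle.

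The 6 libraries held between 7863782 and 18460188 counts, and all 24 between 6226126 and 29404141. Over the 20109 tested genes the log2 levels of libraries of the same group correlated at 0.952 to 0.970, and those of 2e with those of 12 at 0.945 to 0.968, so the groups did not stand apart as wholes. JAZ9 had 5.15, 7.46 and 5.79 CPM (reads relative to the scaled library total) in the 2e-treated jaz9-1 libraries and 6.28, 7.61 and 5.46 CPM in the 12-treated ones. These 6 values were below all 6 of the 2e- and 12-treated Col-0 libraries, which lay between 14.4 and 25.0 CPM (adjusted p = 2.38e-07 with 2e and 1.34e-05 with 12, edgeR), and JAZ9 did not separate the compounds (log2 difference -0.04, 95% interval -0.47 to 0.38). In the mock libraries the genotypes overlapped, with 2.21 to 3.62 CPM in jaz9-1 and 3.01 to 4.91 CPM in Col-0.

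Few genes separated 2e from 12. Of 20109 tested genes, 13 passed an adjusted p (false discovery rate) of 0.1 (0.0646%), 11 of them higher with 2e (0.0547%) and 2 lower (0.00995%). The 11 were a pair of glyoxylate cycle genes, 5 genes of the anthocyanin pathway, the early light-induced gene ELIP1, and AT2G47780, CP1 and AT5G46960. LOX2, a jasmonate synthesis gene, and AT1G51400, which encodes a photosystem II protein, were the 2 that were lower with 2e. The median log2 difference over all tested genes was 0.00, and 1367 genes (6.80%) had an unadjusted p under 0.05. For 14138 genes (70.3%) the whole 95% interval of the difference lay within a 2-fold change in either direction, that is within 1 on the log2 scale.

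**Figure D1:**
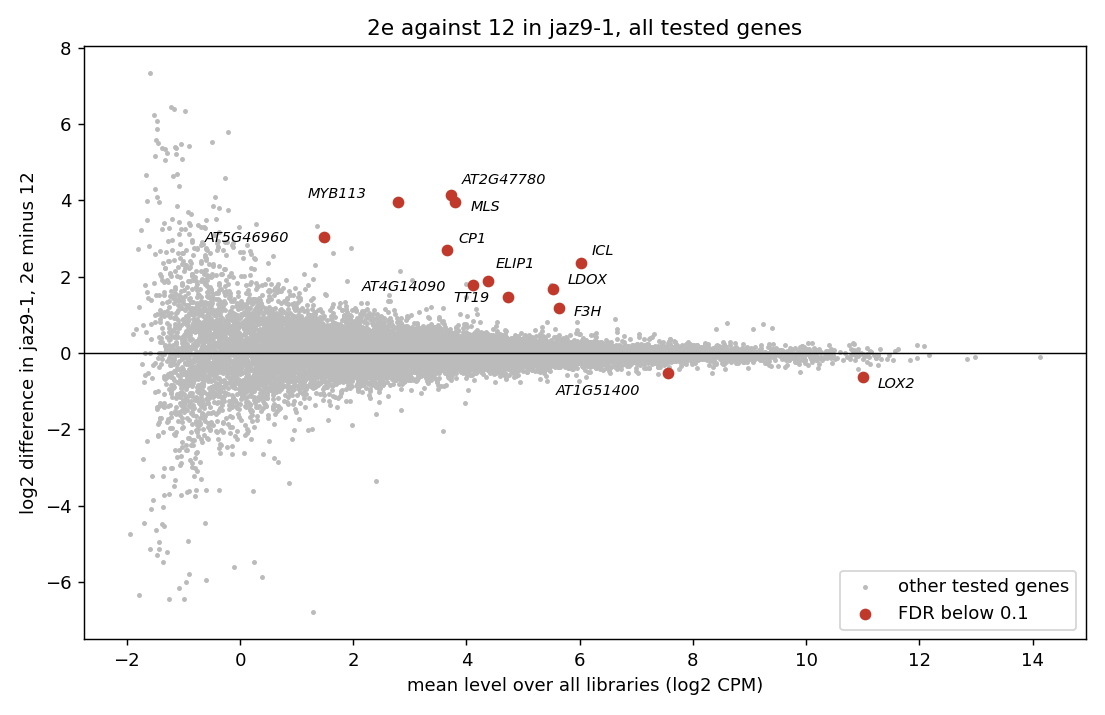
Log2 difference between 2e and 12 in jaz9-1 (2e minus 12, vertical axis) against the mean log2 CPM over all 24 libraries (horizontal axis) for the 20109 tested genes. The 13 genes with an adjusted p under 0.1 are red and named, 11 above the line and 2 below it. Many low-level genes with larger differences did not pass.

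The differences that kept their call most often were those of a glyoxylate cycle gene and a gene of a lipid droplet protein family. MLS (AT5G03860) encodes malate synthase, which joins acetyl-CoA to glyoxylate when a seedling turns oil into sugar. Its level was 37.5, 39.7 and 58.6 CPM with 2e and 2.45, 2.41 and 3.84 CPM with 12. All 2e libraries were high and all 12 libraries low, with no overlap, and the difference was 15.5-fold (log2 3.96, SE 0.44, adjusted p = 9.95e-06). The mock-treated jaz9-1 libraries lay between them, at 18, 7.67 and 35.6 CPM. Against mock, MLS fell by 2.81 on the log2 scale with 12 (adjusted p = 0.000119), whereas the 1.15 difference with 2e did not pass (adjusted p = 0.173). Every Col-0 library, coronatine included, was low (1.84 to 7.47 CPM), so that the 12-treated jaz9-1 libraries lay inside the Col-0 range and the 2e-treated ones above it. The coronatine-treated jaz9-1 libraries were at 16.2, 23.3 and 44.7 CPM.

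ICL (AT3G21720) encodes isocitrate lyase, the enzyme of the same cycle that supplies the glyoxylate. It was at 128, 123 and 263 CPM with 2e and at 44.6, 25.7 and 28.0 CPM with 12. The groups did not overlap, and ICL was 5.18-fold higher with 2e (log2 2.37, SE 0.43, adjusted p = 0.0353). The 12-treated libraries were also below the mock-treated ones of jaz9-1 (95.4, 52.3 and 175 CPM, adjusted p = 0.0328), and the 2e-treated ones overlapped mock. Col-0 lay between 8.42 and 41.7 CPM in all treatments.

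AT2G47780 is annotated as a protein of the rubber elongation factor family, a family that coats lipid droplets in plant cells. It had 34.6, 41.4 and 95.8 CPM with 2e and 3.40, 3.68 and 2.77 CPM with 12, the widest difference among the 13 genes (log2 4.14, SE 0.54, adjusted p = 0.000249). Mock-treated jaz9-1 again lay between, at 26.8, 10.9 and 31.3 CPM, and the level fell by 2.80 with 12 against mock (adjusted p = 0.00227). No Col-0 library exceeded 6.78 CPM. MLS and AT2G47780 were the only 2 of the 13 genes that passed in each of the 14 alternative analyses.

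CP1 (AT4G36880) encodes a papain-type cysteine protease, and AT5G46960 a member of the family of invertase and pectin methylesterase inhibitors. CP1 had 15.6, 22.7 and 64.8 CPM with 2e and 6.01, 5.58 and 4.31 CPM with 12 (6.52-fold, log2 2.70, SE 0.53, adjusted p = 0.0594). AT5G46960 had 4.28, 4.74 and 13.1 CPM with 2e and 0.372, 1.01 and 1.38 CPM with 12 (8.27-fold, log2 3.05, SE 0.65, adjusted p = 0.0967). Neither overlapped between the compounds, but the mock-treated jaz9-1 libraries were scattered from 4.49 to 80.6 CPM for CP1 and from 1.16 to 14 CPM for AT5G46960. Both genes were called lower with 12 than with mock (adjusted p = 0.00215 and 0.00748) and were near mock with 2e (log2 differences of -0.05 and 0.05). In both, however, the first mock library (4.49 and 1.16 CPM) lay inside the range of the 12-treated ones.

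MLS, ICL, AT2G47780, CP1 and AT5G46960 thus shared a pattern: called lower for 12 against mock in jaz9-1, where 97 genes (0.482%) were called lower, and not called for 2e against mock. The contrasts share the 12-treated libraries, so these counts are not independent of the difference between the compounds. In all 5 genes each 2e-treated jaz9-1 library was above each of the 12 Col-0 libraries, as was so for 393 tested genes (1.95%). With coronatine in jaz9-1 the 5 genes did not behave alike. MLS stayed high, as given above, and ICL was at 85.1, 41.9 and 247 CPM. AT2G47780 was at 4.35, 4.66 and 29.5 CPM, CP1 at 4.16, 2.85 and 2.28 CPM and AT5G46960 at 2.08, 0.777 and 2.09 CPM. Low levels of AT2G47780, CP1 and AT5G46960 were thus not particular to 12, and the levels with coronatine were not tested against mock.

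**Figure D2:**
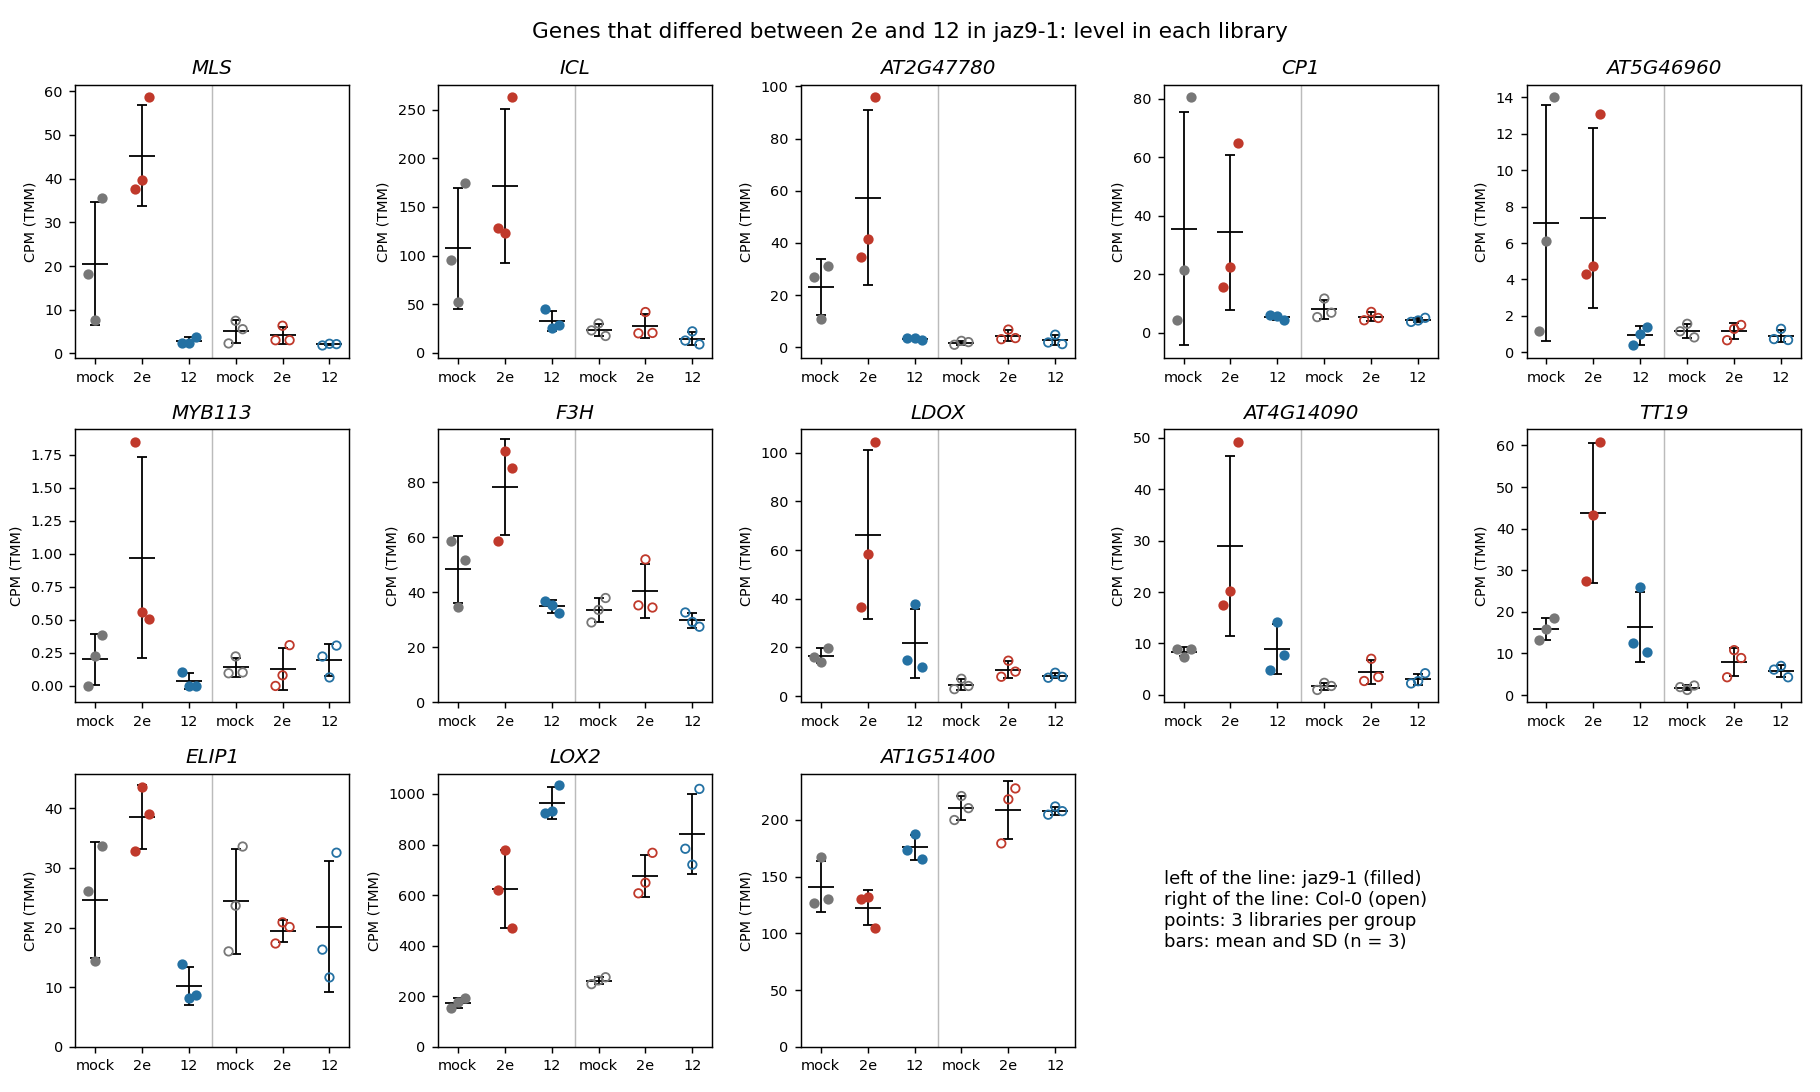
Level in CPM (vertical axes) of the 13 genes in each library of mock, 2e and 12 (horizontal axes), jaz9-1 filled and left of the line, Col-0 open and right of it. Bars give the mean and SD of 3 libraries. In the panels of MLS, ICL and AT2G47780 the 12-treated jaz9-1 libraries sit at or near the Col-0 level while mock and 2e sit above it, and in those of AT4G14090 and TT19 the 2e-treated jaz9-1 libraries are the highest, as are the second and the third of them in that of LDOX.

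Other genes of oil use did not pass. A list of 16 tested genes of the glyoxylate cycle, fatty acid breakdown and gluconeogenesis, put together after MLS and ICL were seen, had 2 called higher (MLS and ICL themselves), none called lower, and a median log2 difference of 0.19 against 0.00 over all genes. Differences were positive in 14 of the 16. PCK1, the carboxykinase that starts sugar synthesis from oil, was at 139, 189 and 236 CPM with 2e and 140, 112 and 148 CPM with 12, overlapping in one library (log2 0.49, SE 0.14, adjusted p = 0.402). MFP2, a beta-oxidation enzyme, was at 75.1, 74.1 and 87.0 CPM with 2e and 55.6, 50.1 and 65.1 CPM with 12, without overlap, and did not pass either (log2 0.47, SE 0.12, adjusted p = 0.334). The seed storage genes that young seedlings may still hold were near 0, with a summed level of at most 2.23 CPM over 4 tested genes in any of the 6 libraries.

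Genes of the anthocyanin pathway formed the second group. F3H makes dihydroflavonols, LDOX the anthocyanidins, AT4G14090 is annotated as an anthocyanin 5-O-glucosyltransferase, TT19 is the glutathione transferase needed for their transport to the vacuole, and MYB113 is a MYB factor that activates the late steps. Of the 12 tested members of the anthocyanin list, to which AT4G14090 did not belong because its symbol was not matched, 4 were called higher with 2e and none lower. All 12 differences were positive, with a median log2 of 1.32 against 0.00 over all tested genes, and in 8 of the 12 each 2e library was above each 12 library, against 5.97% of all genes. An unadjusted p under 0.05 in the same direction was found for 9 of the 12 (3.48% over all genes).

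F3H (AT3G51240) had 58.6, 91.2 and 85.2 CPM with 2e and 36.9, 35.4 and 32.4 CPM with 12, a 2.25-fold difference (log2 1.17, SE 0.21, adjusted p = 0.0318). LDOX (AT4G22880) had 36.4, 58.3 and 104 CPM with 2e and 15.1, 37.8 and 12.1 CPM with 12 (3.21-fold, log2 1.68, SE 0.33, adjusted p = 0.0594). For F3H the groups were apart, while for LDOX the second 12-treated library lay just above the lowest 2e-treated one, the only overlap among the 11 genes that were higher with 2e. TT19 (AT5G17220) had 27.3, 43.2 and 60.9 CPM with 2e and 12.6, 26.0 and 10.4 CPM with 12 (2.78-fold, log2 1.48, SE 0.30, adjusted p = 0.0596). AT4G14090 had 17.5, 20.2 and 49.2 CPM with 2e and 4.89, 14.2 and 7.69 CPM with 12 (3.42-fold, log2 1.77, SE 0.36, adjusted p = 0.0596). In both the groups were apart by a narrow gap, and the second 12-treated library, also the shallowest of the 6, was the highest of its group.

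MYB113 (AT1G66370) was barely expressed. It had 19, 8 and 9 counts in the 2e-treated libraries and 2, 0 and 0 in the 12-treated ones, 36 against 2 in all. The ratio per sequenced read was 16.8, with an interval of 4.34 to 144 for counting error alone, and the gene passed at an adjusted p of 0.0967. It was dropped by the count filter in the fit to the compared groups alone and entered the test through the coronatine groups. MYB113 has close relatives in the genome (MYB75, MYB90 and MYB114), so a share of so few reads may belong to those, and only the first 12-treated library had any. With coronatine jaz9-1 reached 20.5 to 27.2 CPM of MYB113, far above the 0.506 to 1.85 CPM seen with 2e.

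The anthocyanin genes differed from the glyoxylate group in which contrasts against mock were called. The levels themselves did not split as cleanly. For MLS and AT2G47780 each 2e library was also above each mock library of jaz9-1. For F3H the lowest 2e library and the highest mock one were nearly equal (58.6 and 58.5 CPM). LDOX, AT4G14090, TT19 and F3H were called higher for 2e against mock in jaz9-1 (log2 2.01, 1.81, 1.46 and 0.71, adjusted p = 0.000428, 0.00325, 0.00443 and 0.0998), where 348 genes (1.73%) were called higher. With 12 the same 4 genes were not called against mock, at log2 differences of 0.33, 0.03, -0.01 and -0.46. Over the 12 members of the list 6 were called higher for 2e against mock and 1 for 12 against mock (2.01% of all genes), with medians of 1.13 and 0.03. These contrasts share the mock libraries, and for each gene their difference equals the difference between 2e and 12 given above. The counts and medians of the list were not compared by a test. Mock-treated jaz9-1 itself was above mock-treated Col-0 in LDOX, AT4G14090 and TT19 (log2 1.85, 2.32 and 3.06, adjusted p = 0.0125, 0.00410 and 2.55e-05).

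Among members that did not pass, TT8, a bHLH partner of the MYB factors, differed by 2.32 on the log2 scale (95% interval 1.08 to 3.56, adjusted p = 0.331), DFR, which acts between F3H and LDOX, by 1.78 (0.94 to 2.61, adjusted p = 0.199), and UF3GT, a glycosyltransferase of the pathway, by 1.47 (0.60 to 2.33, adjusted p = 0.474). CHS, the first flavonoid enzyme, differed by 0.63 (0.14 to 1.11). Of 12 further flavonoid genes, listed after the anthocyanin genes were seen, none passed, 11 differences were positive and the median was 0.31. In that list TT7, the flavonoid 3'-hydroxylase, was at 14, 18.9 and 27.9 CPM with 2e and 6.97, 14.5 and 6.38 CPM with 12, with the overlap again in the second 12-treated library (log2 1.18, SE 0.30, adjusted p = 0.303). CHIL, which assists the early enzymes, was at 64.4, 65.4 and 62.0 CPM with 2e and 40.1, 44.1 and 39.2 CPM with 12 (log2 0.64, SE 0.15, adjusted p = 0.199).

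ELIP1 (AT3G22840) encodes a chlorophyll-binding protein that plants make under strong light. It had 32.8, 43.6 and 39.1 CPM with 2e and 13.9, 8.11 and 8.61 CPM with 12, without overlap (3.70-fold, log2 1.89, SE 0.39, adjusted p = 0.0599). The 12-treated libraries were below mock-treated jaz9-1 (26.1, 14.4 and 33.7 CPM) and the 2e-treated ones overlapped it, and neither compound was called against mock (log2 0.65 with 2e and -1.24 with 12). Its paralog ELIP2, 1 of the other 3 genes of a light stress list of 4 in which only ELIP1 passed, was at 7.77, 16.0 and 11.4 CPM with 2e and 8.78, 3.17 and 5.92 CPM with 12, with overlap (adjusted p = 0.632).

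LOX2 and AT1G51400 were higher with 12. LOX2 (AT3G45140) encodes the chloroplast lipoxygenase of jasmonate synthesis and is itself a jasmonate-responsive gene. It had 619, 778 and 470 CPM with 2e and 924, 932 and 1035 CPM with 12, without overlap, and was 1.55-fold higher with 12 (log2 -0.63, SE 0.12, adjusted p = 0.0594). Both compounds raised it above mock (153, 176 and 194 CPM, log2 1.83 with 2e and 2.46 with 12), far less than coronatine, with which jaz9-1 reached 5707 to 6935 CPM. AT1G51400, the photosystem II 5 kD protein, had 130, 132 and 105 CPM with 2e and 174, 187 and 166 CPM with 12 (1.44-fold higher with 12, log2 -0.52, SE 0.11, adjusted p = 0.0594). Its 12-treated libraries overlapped mock, at 126, 167 and 130 CPM, and neither compound was called against mock.

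Outside LOX2 no gene of the jasmonate lists passed between the compounds, though the summed levels of several lists, some of them holding LOX2, did not overlap. None of the 12 JAZ genes passed, their median log2 difference was -0.05, and for 9 of them the whole interval lay within 1 on the log2 scale. JAZ1 had 98.8, 110 and 103 CPM with 2e and 108, 109 and 110 CPM with 12 against 25.4 to 30.8 CPM with mock (log2 difference -0.06, 95% interval -0.25 to 0.13). MYC2, the main activator, had 54.7, 60.6 and 58.5 CPM with 2e and 48.0, 48.6 and 61.4 CPM with 12 (log2 0.14, -0.10 to 0.38). Levels of both genes overlapped between the compounds and were above mock with each. The summed level of the 12 JAZ genes was 343 to 359 CPM with 2e and 374 to 384 CPM with 12, against 169 to 179 CPM with mock, so the sums were apart and slightly higher with 12.

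Of 13 tested jasmonate synthesis genes only LOX2 passed, with a list median of -0.04. Their sum was 1992 to 2804 CPM with 2e and 2919 to 3453 CPM with 12, and that of the 15 genes of the MYC branch, which also holds LOX2, 984 to 1375 CPM with 2e and 1426 to 1613 CPM with 12. Both sums were higher with 12 without overlap. LOX2 alone made up 470 to 778 CPM of each with 2e and 924 to 1035 CPM with 12. These sums are therefore not a result about the other members of either list. LOX2 was the 1 call of the MYC branch list too, whose median was 0.11, with 2 genes higher and 3 lower at an unadjusted p under 0.05. The 6 genes of jasmonate turnover summed to 117 to 132 CPM with 2e and 102 to 106 CPM with 12, higher with 2e, with no call and a median of 0.18. The sums were not tested. AOS, the enzyme after LOX2, had 207, 257 and 176 CPM with 2e and 239, 294 and 271 CPM with 12, with overlap (log2 -0.33, -0.55 to -0.10, adjusted p = 0.553). AOC2, which acts next, had 1045, 1251 and 864 CPM with 2e and 1260, 1345 and 1591 CPM with 12, apart by a narrow gap (log2 -0.41, SE 0.10, adjusted p = 0.303). OPR3 differed by -0.04 (-0.27 to 0.20). VSP2, a storage protein of the MYC branch, leaned the other way at 21.7, 37.2 and 42.7 CPM with 2e and 17.8, 28.1 and 20.9 CPM with 12 (log2 0.65, 0.22 to 1.07, adjusted p = 0.536), and IAR3, an amidohydrolase of jasmonate turnover, had 58.0, 56.9 and 55.9 CPM with 2e and 41.8, 46.7 and 45.1 CPM with 12, without overlap (log2 0.36, SE 0.10, adjusted p = 0.349).

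None of the 12 tested genes of the ERF/ORA defence branch passed, and their median was 0.10. ORA59, its main ERF factor, had 29.1, 23.0 and 12.1 CPM with 2e and 16.9, 30.4 and 20 CPM with 12, which overlapped fully (log2 -0.06, -0.62 to 0.50). HEL, a hevein-like defence protein, had 230, 176 and 151 CPM with 2e and 228, 224 and 221 CPM with 12 (log2 -0.28, -0.69 to 0.14). The intervals of the less expressed PDF1.2, PDF1.3 and ERF1 reached past 1 on the log2 scale (-0.74 to 1.39, -0.42 to 1.37 and -2.57 to 1.44), so a 2-fold difference in these was not excluded. None of the 13 tested aliphatic glucosinolate genes passed between the compounds, with a median of -0.10 and 12 negative differences. Of these genes 12 were called higher than mock with 2e (1.73% of all genes) and 12 with 12 (2.01%). The 15 xyloglucan endotransglucosylase genes, which loosen cell walls, had no call and a median of 0.20 with 13 positive differences, and the 10 reference genes had no call and a median of 0.05. The cell wall genes EXLA2, XTH19 and XTH23 differed by 0.11, 0.32 and 0.11, each with an interval that held 0.

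Of the 397 genes called for 2e against mock in jaz9-1 (1.97% of those tested), 5 were called for 2e against 12, and for 359 (90.4%) the interval of 2e against 12 lay within 1 on the log2 scale. Of the 502 called for 12 against mock (2.5%), 6 were called and 437 (87.1%) had such an interval. Over all tested genes 13 (0.0646%) were called for 2e against 12 and 70.3% had such an interval. Since the 2e or the 12 libraries entered both contrasts, these shares are descriptions. They leave room for differences under 2-fold in most genes that responded.

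**Figure D3:**
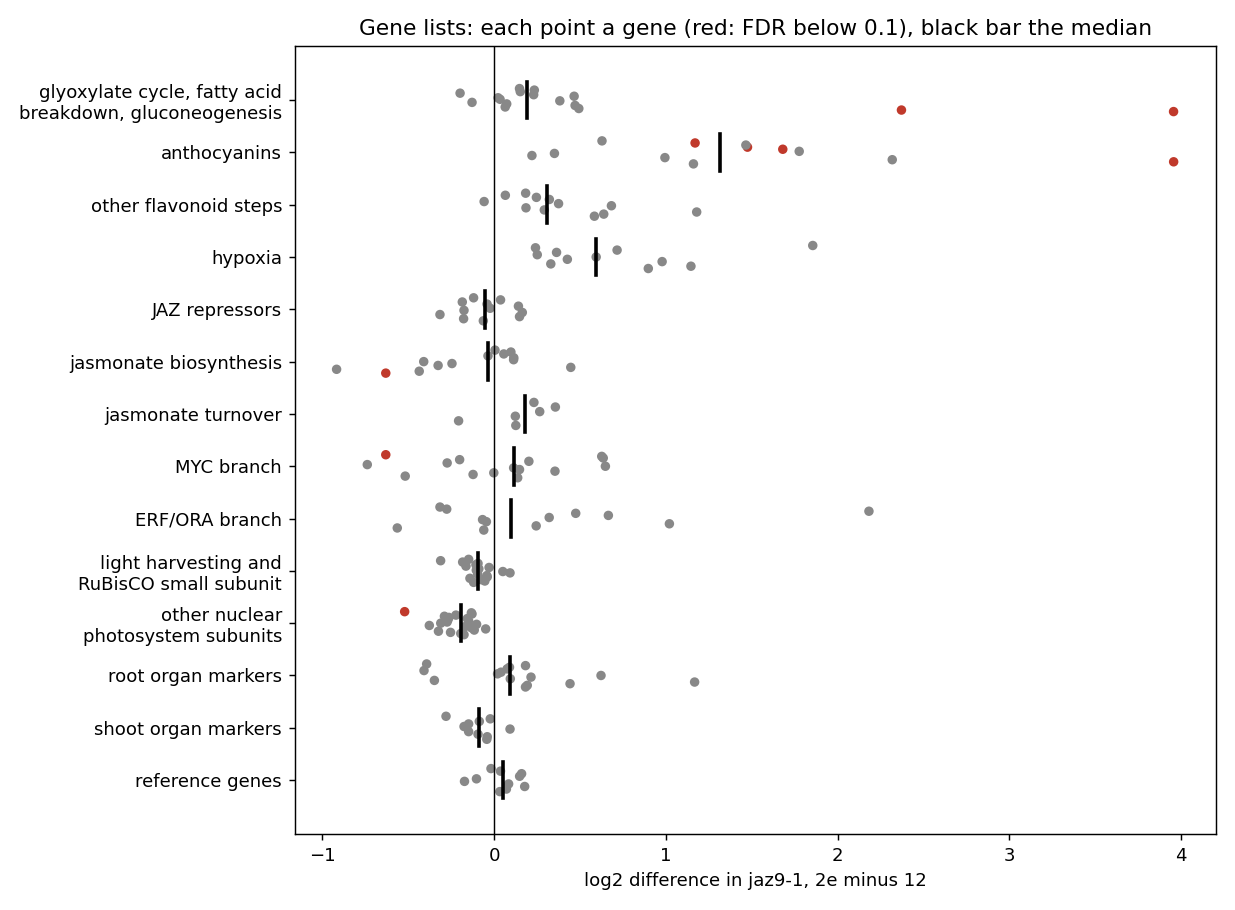
Log2 difference between 2e and 12 in jaz9-1 (2e minus 12, horizontal axis) of each tested gene of 14 gene lists (vertical axis), with the median as a black bar and genes under an adjusted p of 0.1 in red. The anthocyanin genes all lie right of 0 around a median of 1.32, the JAZ genes lie around -0.05, and the photosystem subunits all lie left of 0. The rightmost anthocyanin point is MYB113, which had 2 counts in all with 12.

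Differences in a list of photosystem genes were small and of 1 sign. All 21 tested genes of the nuclear photosystem subunits outside the antenna, a list made after AT1G51400 was seen, had negative differences, with a median of -0.19 against 0.00 over all genes, 1 call (AT1G51400), and 16 genes in which each 2e library was below each 12 library (5.93% over all genes). Of the 21, 14 had an unadjusted p under 0.05 (3.32% over all genes in that direction). PSAK, a photosystem I subunit, had 883, 1030 and 799 CPM with 2e and 1236, 1221 and 1067 CPM with 12, the nearest of them to the threshold (log2 -0.38, SE 0.09, adjusted p = 0.156). PSBQ-2, of the oxygen-evolving complex, was at 775, 861 and 813 CPM with 2e and 980, 1032 and 926 CPM with 12, also apart (log2 -0.26, adjusted p = 0.331). The 18 genes of the antenna and the RuBisCO small subunit had a median of -0.09 and no call. In Col-0 the medians of both lists were positive, at 0.10 and 0.14. All 21 photosystem differences stayed negative under each of the 14 alternatives, scalings included.

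The 11 tested hypoxia genes all had positive differences, with a median of 0.59, but none passed (lowest adjusted p = 0.582). ADH1, the alcohol dehydrogenase, was at 102, 104 and 234 CPM with 2e and 73.1, 99.8 and 65.3 CPM with 12, apart only narrowly, and PDC1, the pyruvate decarboxylase of the same fermentation, at 15.7, 20.6 and 61.7 CPM with 2e and 16.2, 18.6 and 10.2 CPM with 12, with overlap. The third 2e-treated library was by far the highest in both. Without it the list median was 0.29 and 9 of the 11 differences were positive.

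The third 2e-treated library also carried more root-marker RNA. The summed level of 15 root markers was 4154, 4768 and 6478 CPM in the 2e-treated libraries and 4511, 4655 and 4450 CPM in the 12-treated ones (3752 to 4831 CPM with mock in jaz9-1). Of 10 shoot markers the sums were 33279, 35270 and 31915 CPM with 2e and 37663, 35939 and 34341 CPM with 12. Several of these shoot markers also belong to the antenna and RuBisCO list above, so they are not a separate observation. None of the 25 organ markers passed, 12 of the 15 root markers were positive and 9 of the 10 shoot markers negative, so that root markers were highest and shoot markers lowest in the third 2e-treated library. It was also the highest 2e library in 8 of the 11 genes that were higher with 2e. For MLS, ICL, AT2G47780, CP1 and AT5G46960 the third mock-treated jaz9-1 library was likewise the highest of its group. In bulk tissue a changed share of an organ and a changed level per cell cannot be told apart, and the part of organ shares in the differences was not tested.

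Without the third 2e-treated library MLS and AT2G47780 kept log2 differences of 3.73 and 3.54 (adjusted p = 0.000101 and 0.00506), and MYB113 kept its call (adjusted p = 0.0929), and the other 10 genes did not pass. Among these F3H stayed at 1.11 (adjusted p = 0.146), ELIP1 at 1.88 (0.274) and ICL at 1.92 (0.364), while LDOX moved to 1.19, TT19 to 1.16, AT4G14090 to 1.14, CP1 to 1.86 and AT5G46960 to 2.32 (adjusted p = 0.790 in each). LOX2 moved to -0.46 and AT1G51400 to -0.42 (adjusted p = 0.764 in both). MLS and AT2G47780 were also the only calls without the first or without the third 12-treated library. The direction of all 13 held in every alternative that gave a value. The anthocyanin median was 1.1 without the third 2e-treated library, with all 12 genes still positive.

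The same comparison in Col-0, on 6 other libraries, called no gene (0%) by edgeR, with 810 genes (4.03%) at an unadjusted p under 0.05 and a lowest adjusted p of 0.119, while DESeq2 called 9 without and 17 with its independent filter and limma 3. Of the 13 genes 4 had an unadjusted p under 0.05 in Col-0. MLS had 3.03, 6.34 and 3.04 CPM with 2e and 1.84, 2.22 and 2.14 CPM with 12 there (log2 1.01, 95% interval 0.10 to 1.93), and ICL 19.8, 41.7 and 20.2 CPM with 2e and 12.3, 21.8 and 8.42 CPM with 12 (log2 0.92, 0.02 to 1.82). MLS did not overlap between the compounds in Col-0, while for ICL the highest 12-treated library lay above the lower pair of 2e-treated ones. ELIP1 differed by -0.04 and AT1G51400 by 0.00 in Col-0, and LOX2 by -0.32 (-0.57 to -0.07).

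The test of the difference between genotypes itself called no gene (0%) by edgeR, with 965 genes (4.80%) at an unadjusted p under 0.05, against 6 and 27 by DESeq2 without and with its filter and 0 by limma. The lowest adjusted p was 0.234, reached among others by AT2G47780 and MLS (log2 differences between genotypes of 3.43 and 2.94). Of the 13 genes 12 had an unadjusted p under 0.05 in this test. The 13 were chosen on the jaz9-1 difference that enters it, so that count is a description, and the separation of 2e from 12 was not shown to be particular to jaz9-1. Across all 20109 genes the differences in jaz9-1 and in Col-0 correlated at a Pearson r of 0.05 and a Spearman rho of 0.06, a description over genes that are not independent.

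**Figure D4:**
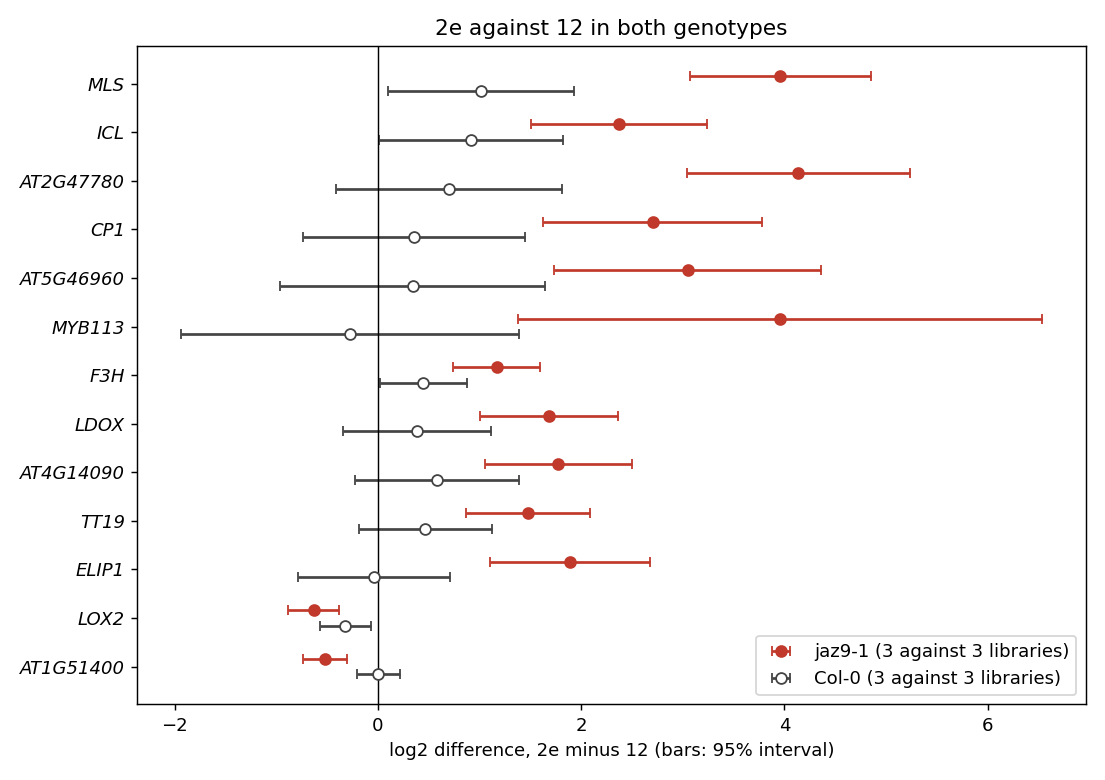
Log2 difference between 2e and 12 (2e minus 12, horizontal axis) of the 13 genes (vertical axis) in jaz9-1 (red, filled) and in Col-0 (grey, open), 3 against 3 libraries each, with 95% intervals. The 11 upper genes lie right of 0 in jaz9-1 and LOX2 and AT1G51400 left of it, and the Col-0 values lie nearer to 0 in all 13.

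Against Col-0 under the same treatment, 10 of the 11 genes were called higher in jaz9-1 with 2e (1.24% of all genes), 8 with mock (1.19%) and 3 with 12 (1.86%). These counts were not compared with each other by a test, and those with 2e and 12 use the libraries that chose the genes. The 8 called with mock include MLS, ICL, AT2G47780, CP1 and AT5G46960, with log2 differences of 2.00, 2.23, 3.65, 2.19 and 2.64. ELIP1, F3H and MYB113 did not pass between the mock-treated genotypes.

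The threshold left a gap between the last genes inside and the first outside. AT5G46960 and MYB113 were the last inside, both at an adjusted p of 0.0967. The first outside were AT1G03495, annotated as an acyltransferase (log2 2.16, adjusted p = 0.155), PSAK at 0.156, and AT3G19550 at 0.175, with no count in any 2e-treated library and 17, 0 and 21 with 12. Lower with 2e but not called were also CYP71A12, a camalexin-branch cytochrome P450 (0.972, 0.488 and 0.955 CPM with 2e and 4.2, 18 and 3.46 CPM with 12, adjusted p = 0.309), and the MADS-box gene SEP3 (7.38, 7.25 and 5.17 CPM with 2e and 11.4, 13.8 and 10.2 CPM with 12, adjusted p = 0.331). Neither overlapped between the compounds. AT2G35410 and TRXF1, a chloroplast thioredoxin, differed by -0.34 and -0.35 (adjusted p = 0.303 and 0.331).

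The promoters of the 13 genes were read from the RefSeq TAIR10.1 genome as the 250 bases before the annotated start of each gene, matched by locus. The G-box CACGTG, the palindromic core bound by MYC and other bHLH or bZIP factors, was present in 4 of the 13 (30.8%), against 7.34% of the 19914 tested genes with such a window and 6.49% of 27443 protein-coding genes. The GCC box GCCGCC and the evening element AAAATATCT were in none of the 13 (1.94% and 2.47% of tested genes), and TGACG, the core of TGA factor sites, was in 1, AT4G14090 (19.2% of tested genes). All motifs were searched on both strands, and none of these counts was tested. The 4 windows with a G-box are shown 5′ to 3′ along the gene, with the motif in capitals, as the windows in which the motif most often found among the 13 stood.
AT2G47780: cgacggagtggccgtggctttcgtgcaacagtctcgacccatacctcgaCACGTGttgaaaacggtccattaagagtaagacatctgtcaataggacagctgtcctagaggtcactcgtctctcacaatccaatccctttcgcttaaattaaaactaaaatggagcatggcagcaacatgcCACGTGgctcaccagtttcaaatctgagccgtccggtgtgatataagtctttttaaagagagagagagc
F3H: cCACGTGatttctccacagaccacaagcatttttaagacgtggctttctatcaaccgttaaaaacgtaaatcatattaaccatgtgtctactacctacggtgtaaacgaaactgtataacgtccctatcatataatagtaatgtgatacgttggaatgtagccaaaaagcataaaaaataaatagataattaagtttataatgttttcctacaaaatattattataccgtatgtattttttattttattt
ELIP1: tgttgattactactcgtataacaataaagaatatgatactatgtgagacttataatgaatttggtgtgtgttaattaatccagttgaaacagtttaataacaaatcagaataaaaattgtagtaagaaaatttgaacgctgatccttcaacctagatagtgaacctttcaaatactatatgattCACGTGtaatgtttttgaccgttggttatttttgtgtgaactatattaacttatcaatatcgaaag
AT1G51400: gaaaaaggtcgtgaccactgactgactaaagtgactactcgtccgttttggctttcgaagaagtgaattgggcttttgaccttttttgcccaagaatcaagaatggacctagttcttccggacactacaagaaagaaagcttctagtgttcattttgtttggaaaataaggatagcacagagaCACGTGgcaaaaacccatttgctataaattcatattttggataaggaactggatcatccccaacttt
The window of AT2G47780 (chr2:19569790-19570039, plus strand) held 2 copies, which began 201 and 69 bases before the start. In ELIP1 (chr3:8085670-8085919, minus strand) and AT1G51400 (chr1:19052583-19052832, minus strand) the motif began 66 and 67 bases before the start, although ELIP1 was higher with 2e and AT1G51400 lower. In F3H (chr3:19024942-19025191, plus strand) it began 249 bases before the start, at the edge of the window. The windows of MLS, ICL, LDOX, TT19 and LOX2 held none of the 4 motifs.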

How the data were processed

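The authors sequenced total RNA of pooled seedlings from libraries made by Lasy-Seq (the labels also name TruSeq), trimmed reads with Trimmomatic, aligned them with HISAT2 and counted reads per gene with featureCounts. TAIR10 is the build given in the submitters' processing notes. Counting used the strand and assigned a read to each gene it overlapped. The deposited raw counts of 27416 genes were used as deposited. A second table, counts divided by size factors, was not used here. It also holds 8 value columns matched to no sample, which were left out. The methods describe 3 biological replicates.

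All 24 libraries entered a single edgeR 4.0.16 model with a mean for each group (R 4.3.3, TMM scaling, filterByExpr, quasi-likelihood F-test, two-sided). Adjusted p-values (Benjamini-Hochberg) cover the 20109 genes tested, with a threshold of 0.1. Standard errors and 95% intervals come from the fitted weights and the moderated dispersion. Alternatives used DESeq2 1.42.0, limma 3.58.1, RLE scaling, no filter, a replicate block, other libraries in the fit and each library left out. The scripts were tested on simulated data. Gene names came from RefSeq by locus (26719 of 27416 matched).

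Named were every gene under the threshold, the 10 lowest p in a direction with fewer than 10 calls, genes the study names, JAZ9, up to 3 members per list and the strongest responders to either compound. The comparison, gene lists and rules were chosen with earlier results of these data known, and the lists of glyoxylate, further flavonoid, photosystem and light stress genes, and the fit to the 12 jaz9-1 libraries, after seeing these results. No set test was run.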

Additional observations from a re-analysis of the deposited data

How the results depend on the processing

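MLS and AT2G47780 passed in all 14 alternatives, and no direction of the 13 genes reversed in any. The count of 13 genes for 2e against 12 in jaz9-1 was 4 at a threshold of 0.05 (MLS, AT2G47780, F3H and ICL), 7 with limma, 23 with DESeq2 and independent filtering (9 shared with the 13) and 162 without the count filter (82 higher, 80 lower). It was 2 in a fit to the 12 jaz9-1 libraries alone, an alternative chosen after seeing the data. Leaving out 1 library gave 2 to 26 calls (2 without the first or the third 12-treated library, 5 without the third and 26 without the second 2e-treated library). In Col-0 the count of 0 became 183 without the filter, 22 in a fit to those groups alone, 3 with limma, 9 or 17 with DESeq2, and 0 to 16 with 1 library left out. For the genotype difference the count of 0 became 109 without the filter, 9 in the groups alone, 6 or 27 with DESeq2 and 0 to 5 with 1 library left out. Against mock, 2e had 397 calls (83 at 2.5-fold or more, 682 unfiltered, 264 in jaz9-1 alone, 282 to 396 with 1 library left out) and 12 had 502 (109, 799, 312, and 339 to 465). Why the counts moved was not tested. Across genes, replicate numbers did not pair the 2e- and 12-treated jaz9-1 libraries (correlations of deviations of -0.01, -0.03 and -0.02). In MLS, ICL and AT2G47780, however, the third jaz9-1 library was the highest of its group with mock (35.6, 175 and 31.3 CPM). The same held with coronatine (44.7, 247 and 29.5 CPM) and with 2e (58.6, 263 and 95.8 CPM), and with 12 for MLS only. Whether replicate numbers mark a shared batch was not tested. With a replicate block the 13 calls were the same 13 genes, and 6 genes each were called in Col-0 and for the genotype difference. The median difference over all genes changed from 0.0034 to 0.0013 with RLE scaling. With 3 libraries a group and a median SE of 0.224, differences under 2-fold could not be detected in many genes.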
